A study of Mus musculus with 12 samples.

Results

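Glycolysis, the pentose phosphate pathway and the tricarboxylic acid (TCA) cycle were followed in NU1 cells through 48 genes of central carbon metabolism, among the 23337 gene symbols of a table of RNA sequencing counts. The genes were chosen by symbol for the enzymes and transporters they encode, with earlier results of these data known. Of the 48, 47 were found under their own symbol and 1, Pkm, under an older one (Pkm2). The fit kept 12406 genes after a filter on low counts, and all 48 were among them.

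NU1 is a line of normal mouse urothelial cells, the lining of the bladder and urinary tract, that became immortal on its own during repeated passage. Stag2, a subunit of the cohesin complex that holds and folds chromosomes, was depleted by a lentiviral short hairpin (sh4). The 12 libraries fell into 4 groups of 3, each group with 1 library from experiments 5, 7 and 9: proliferating control cells (shNT hairpin, labelled WT), proliferating Stag2 knockdown cells, quiescent control cells and quiescent Stag2 knockdown cells. Both hairpin groups were made quiescent in the same way, by growth to confluence followed by rosiglitazone at 1 µM and erlotinib at 0.5 µM. Rosiglitazone activates the receptor PPAR gamma, and erlotinib blocks the EGF receptor kinase. The library names of the quiescent cells carry d7, and their sample titles read quiescent (differentiation day 7). All 4 groups were therefore cells of 1 line carrying a hairpin, with 1 hairpin against Stag2. In the comparison of states the drugs, the confluence, the differentiation and the arrest cannot be told apart. The labels give the experiment number but not whether the experiments were separate transductions, so p-values measure the spread between these 3 experiments.

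Glycolysis splits glucose into pyruvate: an early phase, with hexokinase and phosphofructokinase, spends ATP, and a later phase, from glyceraldehyde-3-phosphate dehydrogenase to pyruvate kinase, returns it. Pyruvate is either reduced to lactate and exported or oxidised in mitochondria by pyruvate dehydrogenase and the TCA cycle, while the pentose phosphate pathway branches off glucose-6-phosphate to make NADPH and ribose. Dividing cells in culture are known for a large flux from glucose to lactate, and several of these genes are textbook targets of Myc and of the hypoxia-inducible factors. Messenger RNA level is not flux, and none was measured here.

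Library totals ran from 14524429 to 21987539 counts, and levels are given as CPM, the count divided by the library total (TMM-scaled) and brought to a common size. Because they are shares of a total, and the samples are bulk RNA, fewer cells with a transcript and less of it per cell cannot be told apart. Stag2 was between 107 and 145 CPM in the 6 control libraries and between 9.43 and 33.3 CPM in the 6 knockdown libraries, as the labels have it. Of the epithelial genes, Krt7, Krt8, Krt18, Krt19, Epcam and Cdh1 were at 391 CPM or more in every library. The basal keratins Krt5 and Krt14 reached at most 6.60 and 10.6 CPM and the uroplakins Upk1a, Upk1b and Upk2 at most 3.94 CPM. Upk3b, another uroplakin, had 8 to 152 counts a library, with the most in the quiescent knockdown library of experiment 9. The epithelial transcription factors had 1360 to 11425 counts for Elf3, 467 to 1978 for Gata3, 167 to 1229 for Foxa1 and 3 to 45 for Grhl3. Trp63, a marker of basal urothelium, had 0 counts in all 12 libraries and Upk3a, a marker of the surface layer, stayed under 1 CPM. Among markers of other cells, all 4 of smooth muscle, all 5 of endothelium, 7 of 8 of fibroblasts and 6 of 7 of leukocytes were under 1 CPM in every library. The exception among leukocyte genes was Csf1r, between 10.5 and 163 CPM, with its highest values in quiescent knockdown cells. The summed level of 6 proliferation genes (Mki67, Top2a, Ccnb1, Cdk1, Bub1, Mcm5) was 763 to 1008 CPM in proliferating control, 523 to 1149 in proliferating knockdown, 11.5 to 47.8 in quiescent control and 35.0 to 126 in quiescent knockdown libraries. It moved with the state in every experiment, and its part in the differences below was not tested.

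Levels of different genes were compared per kilobase of exon, in proliferating control cells. The highest was that of Pkm, the pyruvate kinase of dividing cells, at 247 ± 40.4 CPM per kb (SD, n = 3), followed by Pgam1 (phosphoglycerate mutase) at 189 ± 18.9, Pgk1 (phosphoglycerate kinase) at 159 ± 35.6, Aldoa (aldolase A) at 156 ± 18.4 and Gapdh at 130 ± 11.9 CPM per kb. Each of these 5 genes overlapped its neighbour in this order in its range over the 3 libraries. At the low end stood Slc16a3, the lactate exporter MCT4, at 0.29 ± 0.16 CPM per kb, and Pfkp, the platelet phosphofructokinase, at 0.97 ± 0.21. The length used is the union of all exons of a gene, which can exceed that of any 1 transcript. For Pfkp it was 13401 bases, beside 4145 in the longest coding transcript, and for Gapdh 4133 beside 1420. The order of the genes was computed for this length only and can change with another. Eno1 (enolase) was low for its place in the pathway, at 6.32 ± 1.37 CPM per kb. For several of these genes the counts are uncertain, because the reference carries near copies of their transcripts and the handling of reads that match more than 1 gene is not given in the sources used here. Of all 50-base stretches of the transcript, 82.5% were also found in transcripts of other genes for Gapdh, 72.2% for Eno1, 68.0% for Pgk1, 41.5% for Pgam1, 34.4% for Pkm, 25.3% for Gpi1, 21.8% for Suclg2 and 16.6% for Ldha. The share was 30.3% for Pdhb, 27.0% for Ldhb, 19.1% for Rpe, 17.1% for Pfkp and 16.9% for Pdha1. The part of these copies in the levels and differences was not tested.

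The first comparison asked how the genes differ between quiescent and proliferating cells with intact Stag2. In quiescent control cells Gapdh, Pgk1, Eno1 and Pkm of the later phase of glycolysis fell, as did Ldha (lactate dehydrogenase A) and Slc16a1 (the lactate and pyruvate transporter MCT1), by 0.48 to 1.90 on the log2 scale. Pgam1 of the same phase and Ldhb (lactate dehydrogenase B) did not pass the test. Idh3a and Suclg2 of the TCA cycle fell as well, while Taldo1 (transaldolase) and Ogdh (2-oxoglutarate dehydrogenase) rose. These 10 genes, 20.8% of the 48, passed the threshold of an adjusted p of 0.05 in edgeR's quasi-likelihood test, adjusted by Benjamini-Hochberg over all 12406 genes. Of all genes tested, 20.0% passed, so the share of the 48 that moved was that of the transcriptome; by direction, 8 of 48 were lower beside 11.7% of all genes, and 2 of 48 higher beside 8.33%. The median log2 fold change was -0.08 over the 48 genes and 0.00 over all genes.

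The experiments differed in level, and libraries of the same experiment deviated together, so a second fit added a term for the experiment (the replicate block). It took the count to 16 of 48 (33.3%), beside 35.3% of all genes, adding Pfkm, Pcx and Mdh1 as higher and Rpia, Dlst and Fh1 as lower. By direction this was 5 higher, beside 16.8% of all genes, and 11 lower, beside 18.5%. The count without the block changed with the libraries in the fit. It was 0 without experiment 7 and 0 without experiment 9, 9 without experiment 5, and between 3 and 6 without the control library of experiment 7 in proliferating cells, any 1 of the 3 quiescent control libraries or the quiescent knockdown library of experiment 9. Without 1 experiment the count of all genes past the threshold also dropped, from 2481 to between 592 and 1953. Without 1 library it ran from 1394 to 3078.

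**Figure D1:**
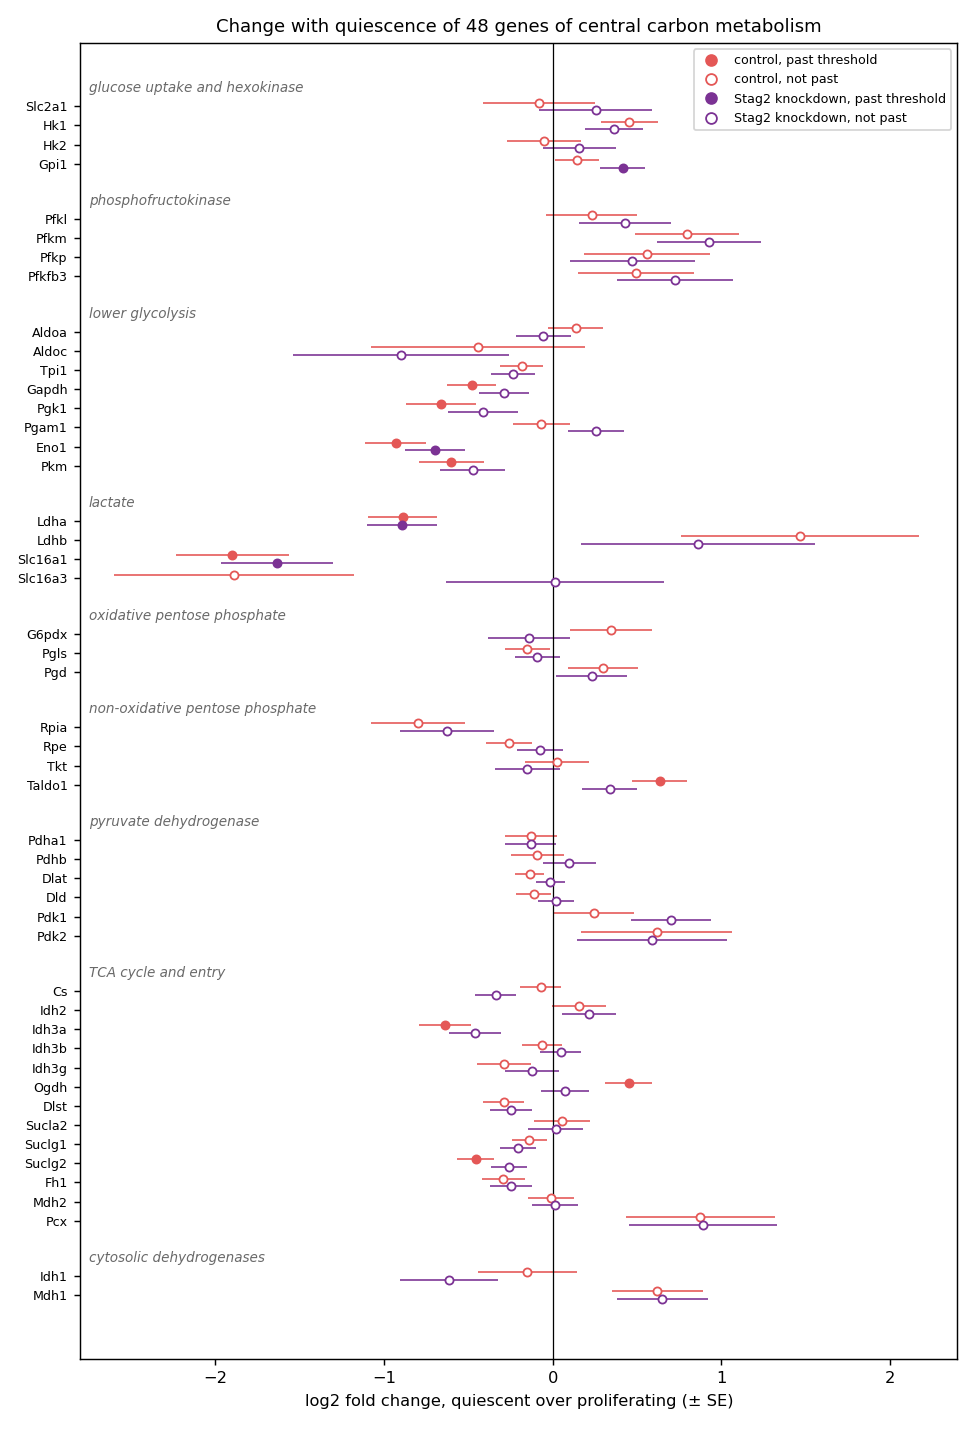
Log2 fold change of each of the 48 genes, quiescent over proliferating, in control cells (red) and in Stag2 knockdown cells (purple), grouped by step of the pathway; bars are the standard error of the edgeR fit without the replicate block, and filled points passed an adjusted p of 0.05. In control cells the filled points to the left are Gapdh (-0.48), Pgk1, Eno1, Pkm, Ldha and Slc16a1 (-1.90) of lower glycolysis and lactate and Idh3a (-0.64) and Suclg2 (-0.46) of the TCA cycle, and all 4 phosphofructokinase genes lie to the right of 0 in both kinds of cells.

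The second comparison asked the same in Stag2 knockdown cells. Eno1, Ldha and Slc16a1 fell and Gpi1 (glucose-6-phosphate isomerase) rose, 4 of 48 genes (8.33%), beside 18.4% of all genes tested. By direction this was 1 higher, beside 7.59% of all genes, and 3 lower, beside 10.8%. With the block 12 of 48 passed (25.0%), beside 33.0% of all: Gpi1, Pfkm, Pdk1, Pcx and Mdh1 were higher and Eno1, Pkm, Ldha, Slc16a1, Rpia, Cs and Idh3a lower. The 5 higher genes stood beside 15.9% of all genes and the 7 lower ones beside 17.2%. The median over the 48 genes was 0.00. The count was 0 without experiment 7 and 0 without experiment 9, and 2 without the proliferating knockdown library of experiment 7 or 9 or the quiescent one of experiment 9. Over all genes the count moved as well, from 2279 to between 701 and 1629 without 1 experiment. Without 1 library it ran from 1186 to 2408. The knockdown and control comparisons use different libraries, and 3 genes passed in both, Eno1, Ldha and Slc16a1, which is 3 of the 10 in control and 3 of the 4 in knockdown cells. With the block 9 genes passed in both, of 16 and of 12, and all 9 had the same sign. The overlap was not counted over all genes, so it has no background share beside it. Both comparisons also come from the same 3 experiments and share 1 fit, so they are not independent.

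Entry of glucose into the pathway showed little difference. Slc2a1, the glucose transporter GLUT1, was 193, 395 and 224 CPM in proliferating control libraries of experiments 5, 7 and 9 and 251, 329 and 189 CPM in quiescent ones. These values overlapped, and the experiments differed from each other more than the states did. Hk1, the general hexokinase, was 361, 419 and 321 CPM in proliferating and 494, 474 and 541 CPM in quiescent control libraries. The groups did not overlap, but the log2 fold change of 0.46 (SE 0.17) did not pass in edgeR (adjusted p 0.084; 0.0633 with the block). Hk2, the inducible hexokinase, differed by -0.05 (SE 0.22). Gpi1 was 356, 384 and 362 CPM in proliferating and 532, 391 and 546 CPM in quiescent knockdown libraries. In experiment 7 the states were almost level, and Gpi1 passed narrowly, at 0.42 (SE 0.13, edgeR adjusted p 0.0494); it passed in 1 of the 12 fits that each left out 1 library.

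Phosphofructokinase is the step where the cell commits glucose to glycolysis; Pfkl, Pfkm and Pfkp encode its liver, muscle and platelet forms, and Pfkfb3 makes the fructose-2,6-bisphosphate that activates it. All 4 genes had positive fitted log2 fold changes with quiescence in both kinds of cells and under every scaling tried. The medians were 0.53 in control and 0.60 in knockdown cells, and none passed without the block. The experiments did not all go this way. In experiment 7 Pfkl, Pfkp and Pfkfb3 were lower in the quiescent library under both hairpins, also relative to the library total. Their counts went from 2095 to 1654, 276 to 214 and 806 to 707 in control libraries. In knockdown libraries they went from 2547 to 1991, 355 to 306 and 637 to 572. Pfkm was 24.7, 12.6 and 15.6 CPM in proliferating control, 38.2, 21.8 and 31.8 in quiescent control, 25.1, 13.9 and 19.3 in proliferating knockdown and 44.1, 26.9 and 39.9 CPM in quiescent knockdown libraries of experiments 5, 7 and 9. It was higher in quiescent cells in all 6 pairs of libraries, although the control groups overlapped because experiment 5 was high and experiment 7 low throughout. Its log2 fold change of 0.80 (SE 0.31) in control cells passed with the block, at 0.81 (SE 0.12, edgeR adjusted p 0.000643, without it 0.0922). In knockdown cells it was 0.93 (SE 0.31, edgeR adjusted p 0.059) and, with the block, 0.94 (SE 0.12, edgeR adjusted p 0.00028). Pfkfb3 differed by 0.49 (SE 0.34) and 0.73 (SE 0.34) in control and knockdown cells, and passed in neither.

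Of the 8 genes of lower glycolysis, from aldolase to pyruvate kinase, 4 fell and none rose in quiescent control cells, with a median log2 fold change of -0.46. Of all genes, 11.7% were lower and 8.33% higher there. In knockdown cells 1 of the 8 fell (12.5%), beside 10.8% of all genes, with a median of -0.35. Gapdh, which oxidises glyceraldehyde-3-phosphate, was 496, 520 and 591 CPM in proliferating and 398, 330 and 423 CPM in quiescent control libraries. Pgk1, which makes the first ATP of the phase, was 270, 426 and 375 against 213, 214 and 250 CPM. For both genes every quiescent library lay under every proliferating one. The log2 fold changes were -0.48 (SE 0.15, edgeR adjusted p 0.0406) for Gapdh and -0.66 (SE 0.21, edgeR adjusted p 0.0445) for Pgk1. In knockdown cells the groups overlapped, at -0.29 (SE 0.15) and -0.41 (SE 0.21), and neither passed.

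Eno1, which dehydrates 2-phosphoglycerate, was 28.2, 42.3 and 31.5 CPM in proliferating and 18.4, 17.0 and 18.1 CPM in quiescent control libraries. In knockdown libraries it was 32.1, 42.5 and 31.6 against 24.9, 19.1 and 21.5 CPM. Neither pair of groups overlapped, and Eno1 fell by 0.93 on the log2 scale in control cells (SE 0.18, edgeR adjusted p 0.00485) and by 0.70 in knockdown cells (SE 0.18, edgeR adjusted p 0.021). Pkm was 1392, 1308 and 1007 CPM in proliferating and 941, 730 and 771 CPM in quiescent control libraries and fell by 0.60 (SE 0.19, edgeR adjusted p 0.048). In knockdown libraries it was 1369, 1411 and 1249.5 against 1250.4, 799 and 855 CPM, and here the quiescent library of experiment 5 reached the lowest proliferating one. The value of -0.47 (SE 0.19) passed only with the block (-0.50, edgeR adjusted p 0.0245). Aldoa, Tpi1 (triosephosphate isomerase) and Pgam1 did not pass in either kind of cells, with log2 fold changes between -0.23 and 0.26. Aldoc, aldolase C, had the widest error of the step, with -0.44 (SE 0.64) in control and -0.90 (SE 0.64) in knockdown cells on levels of 1.35 to 8.70 CPM.

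**Figure D2:**
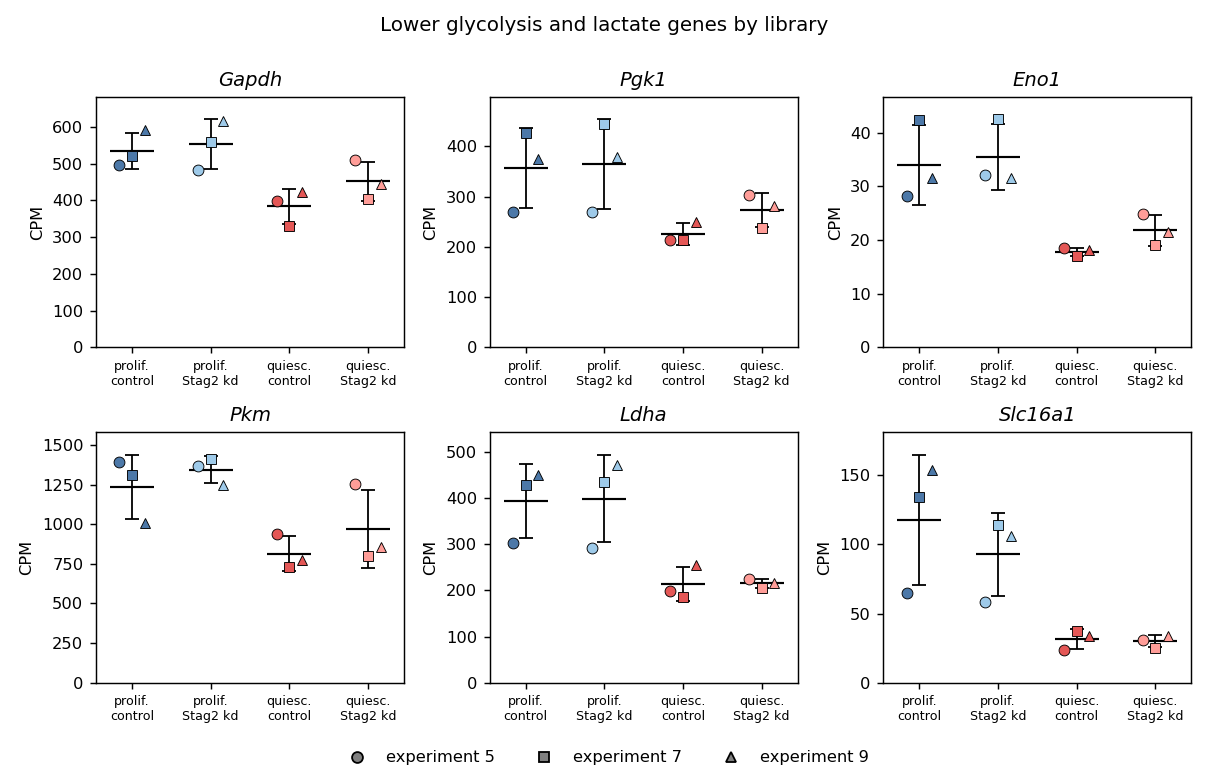
CPM of Gapdh, Pgk1, Eno1, Pkm, Ldha and Slc16a1 in each of the 12 libraries; markers give the experiment, and lines the group mean with its standard deviation (n = 3). For Eno1, Ldha and Slc16a1 every quiescent library lies under every proliferating library of the same hairpin, as for Slc16a1 at 23.5 to 37.6 against 64.6 to 154 CPM in control cells.

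Lactate dehydrogenase reduces pyruvate to lactate, with an A subunit typical of glycolytic tissue and a B subunit typical of oxidative tissue. Ldha was 302, 428 and 450 CPM in proliferating and 199, 185 and 254 CPM in quiescent control libraries, and 291, 434 and 470 against 225, 204 and 215 CPM in knockdown libraries. The groups did not overlap, and Ldha fell by 0.89 on the log2 scale in both control (SE 0.21, edgeR adjusted p 0.0119) and knockdown cells (SE 0.21, edgeR adjusted p 0.0126). Slc16a1 was 64.6, 134 and 154 CPM in proliferating and 23.5, 37.6 and 33.6 CPM in quiescent control libraries, and 58.5, 114 and 106 against 31.0, 25.2 and 33.6 CPM in knockdown libraries. Experiment 5 had the lowest proliferating level under both hairpins, yet its quiescent libraries were lower still. The log2 fold changes were -1.90 (SE 0.33, edgeR adjusted p 0.00288) and -1.63 (SE 0.33, edgeR adjusted p 0.00673). Slc16a1 passed in all 12 fits without 1 library in both comparisons, Eno1 in 12 and 9, and Ldha in 10 and 11. Without a whole experiment, each of the 3 passed in 1 of 3 fits in each comparison. The other genes called in control cells were less steady in part. Suclg2 passed in 11 of the 12 fits without 1 library, Idh3a and Taldo1 in 10, Gapdh and Ogdh in 5, and Pgk1 and Pkm in 3. Without a whole experiment Suclg2, Idh3a, Pgk1 and Pkm passed in 1 of 3 fits, and Taldo1, Gapdh and Ogdh in 0.

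Ldhb, the B subunit, did not pass: it was 26.0, 15.7 and 31.4 CPM in proliferating and 21.3, 21.7 and 159 CPM in quiescent control libraries. The library of experiment 9 carried the difference of 1.47 (SE 0.71). In knockdown cells Ldhb was 37.8, 28.1 and 65.9 against 54.8, 62.4 and 122 CPM, higher in each experiment, with a log2 fold change of 0.86 (SE 0.69). Slc16a3 was counted 4 to 47 times in a library, too few for more than its range of 0.25 to 2.75 CPM.

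The 250 bases before the transcription start of the 3 genes that fell with quiescence under both hairpins are shown because Ldha and Slc16a1 are textbook targets of factors that read ACGTG, the core of the hypoxia response element, or CACGTG, an E-box bound by Myc. The sequences are from RefSeq, build GRCm38.p6, on the plus strand, with each match to ACGTG on either strand in capitals; CACGTG holds it on both strands. They lie at chr4:150236458-150236707 for Eno1, chr7:46845554-46845803 for Ldha and chr3:104638414-104638663 for Slc16a1. RefSeq lists 3 starts for Eno1, 2 for Ldha and 1 for Slc16a1, and only the outermost of each gene is shown.
Eno1: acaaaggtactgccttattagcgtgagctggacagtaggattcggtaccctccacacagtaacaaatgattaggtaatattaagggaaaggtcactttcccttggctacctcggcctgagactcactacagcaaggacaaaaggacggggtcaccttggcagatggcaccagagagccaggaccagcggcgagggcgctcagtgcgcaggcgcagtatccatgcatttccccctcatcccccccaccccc
Ldha: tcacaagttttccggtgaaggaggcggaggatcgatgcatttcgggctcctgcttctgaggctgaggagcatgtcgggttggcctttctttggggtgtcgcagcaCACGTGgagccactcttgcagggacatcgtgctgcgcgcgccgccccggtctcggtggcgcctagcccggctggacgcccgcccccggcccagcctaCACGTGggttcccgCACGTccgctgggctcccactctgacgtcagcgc
Slc16a1: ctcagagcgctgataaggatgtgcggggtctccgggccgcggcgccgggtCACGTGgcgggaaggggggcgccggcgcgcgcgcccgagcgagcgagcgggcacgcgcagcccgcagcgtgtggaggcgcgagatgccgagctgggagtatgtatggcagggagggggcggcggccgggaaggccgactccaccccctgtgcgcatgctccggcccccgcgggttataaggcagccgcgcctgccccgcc
The window of Ldha held 3 runs in capitals, between positions -145 and -34 from the start, of which 2 were CACGTG. That of Slc16a1 held 1, a CACGTG at -200, and that of Eno1 none, which covers only the start shown. GCGTG was not searched for or marked, and the windows of Eno1 and Slc16a1 hold it. ACGTG was in 25 of the 69 such windows of 47 of the genes (36.2%) and in 16.6% of all 32851 windows in the table, and CACGTG in 13.0% and 6.02%. The windows were not matched for base composition, and a match in letters is not a bound site.

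The pentose phosphate pathway split by gene. G6pdx and Pgd, the dehydrogenases that make NADPH, and Pgls between them did not pass in either kind of cells, with log2 fold changes of -0.15 to 0.35. G6pdx was 113, 102 and 78 CPM in proliferating and 159, 90.7 and 124 CPM in quiescent control libraries, lower with quiescence in experiment 7 and higher in 5 and 9. Pgd, which makes ribulose-5-phosphate, was 158, 124 and 133 against 199, 123 and 188 CPM. In the non-oxidative branch, which interconverts sugar phosphates, Taldo1 was 207, 186 and 205 CPM in proliferating and 301, 246 and 382 CPM in quiescent control libraries. The groups did not overlap, and Taldo1 rose by 0.64 (SE 0.16, edgeR adjusted p 0.0191); in knockdown cells the value was 0.34 (SE 0.16, edgeR adjusted p 0.17). Rpia, the isomerase that makes ribose-5-phosphate, went the other way, with 68.0, 104 and 142 against 51.0, 74.5 and 55.1 CPM in control libraries. It was lower in each experiment, and passed only with the block, at -0.77 in control (SE 0.20, edgeR adjusted p 0.0144, without it 0.0666) and -0.58 in knockdown cells (SE 0.20, edgeR adjusted p 0.0465, without it 0.144). Rpe and Tkt, the epimerase and transketolase, differed by -0.26 to 0.03 and did not pass.

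The subunits of the pyruvate dehydrogenase complex differed little. Pdha1 and Pdhb (its E1 subunits), Dlat (E2) and Dld (E3) differed by -0.14 to 0.10 on the log2 scale with quiescence, and none passed with or without the block. Its inhibitory kinases varied more. Pdk2 was 23.2, 8.54 and 8.30 CPM in proliferating and 23.4, 13.9 and 24.1 CPM in quiescent control libraries, almost level in experiment 5 (log2 fold change 0.62, SE 0.45, edgeR adjusted p 0.354). Pdk1 was 14.5, 13.3 and 17.7 CPM in proliferating and 27.3, 17.8 and 29.0 CPM in quiescent knockdown libraries, higher in each experiment. Its value of 0.70 (SE 0.24, edgeR adjusted p 0.0602) passed with the block (0.69, SE 0.16, edgeR adjusted p 0.0076).

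In the TCA cycle, 2 of 13 genes fell and 1 rose in quiescent control cells (23.1%, beside 20.0% of all genes), and none passed in knockdown cells without the block. Idh3a, the catalytic subunit of the NAD-dependent isocitrate dehydrogenase, was 84.8, 118 and 105 CPM in proliferating and 65.0, 67.7 and 65.0 CPM in quiescent control libraries. It fell by 0.64 (SE 0.15, edgeR adjusted p 0.0152), while its partner subunits Idh3b and Idh3g differed by -0.06 and -0.29 and did not pass. Suclg2, the GTP-forming subunit of succinyl-CoA ligase, was 89.3, 101 and 108 against 69.9, 75.1 and 72.8 CPM and fell by 0.46 (SE 0.11, edgeR adjusted p 0.0128). Its ATP-forming counterpart Sucla2 differed by 0.06. Ogdh was 251, 211 and 228 CPM in proliferating and 337, 293 and 311 CPM in quiescent control libraries, with no overlap, and rose by 0.45 (SE 0.14, edgeR adjusted p 0.0447). Dlst, the E2 subunit of the same complex, passed only with the block and in the other direction (-0.29, SE 0.10, edgeR adjusted p 0.0459), as did Fh1, fumarase (-0.30, SE 0.10, edgeR adjusted p 0.047).

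Pcx, pyruvate carboxylase, refills the cycle with oxaloacetate. It was 6.06, 6.0 and 11.5 CPM in proliferating and 8.56, 11.1 and 23.7 CPM in quiescent control libraries, and 6.88, 6.32 and 10.8 against 13.6, 9.24 and 21.6 CPM in knockdown libraries. It was higher with quiescence in all 6 pairs, but experiment 9 was high throughout, and Pcx passed only with the block, at 0.83 (SE 0.19, edgeR adjusted p 0.00763) in control and 0.86 (SE 0.19, edgeR adjusted p 0.0066) in knockdown cells. Mdh1, the cytosolic malate dehydrogenase, was 239, 149 and 132 against 314, 203 and 282 CPM in control and 233, 185 and 187 against 425, 228 and 296 CPM in knockdown libraries. It too was higher in each pair and passed only with the block, at 0.64 (SE 0.15, edgeR adjusted p 0.00772) and 0.61 (SE 0.15, edgeR adjusted p 0.0104). Mdh2, the mitochondrial form, differed by -0.01 and 0.02.

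**Figure D3:**
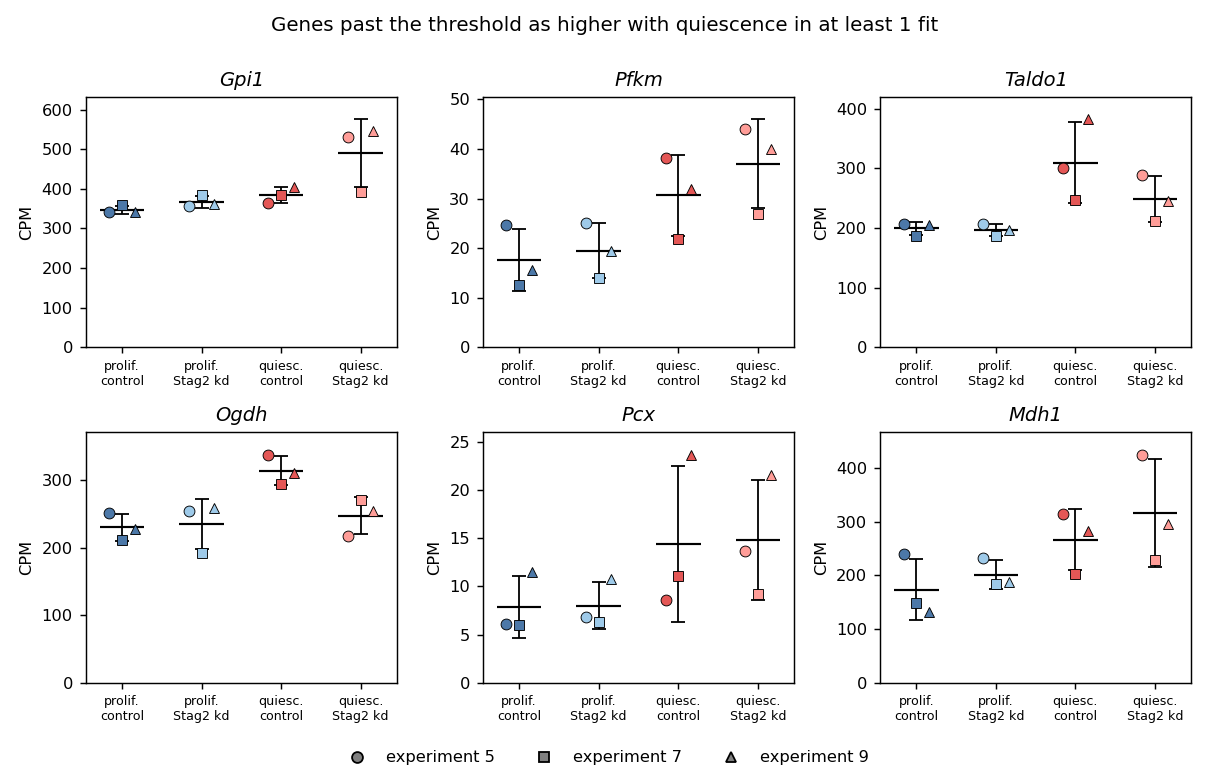
CPM of Gpi1, Pfkm, Taldo1, Ogdh, Pcx and Mdh1 in each library; markers give the experiment, and lines the group mean with its standard deviation (n = 3). The same experiment tends to be high in all 4 groups, as experiment 9 for Pcx (10.8 to 23.7 CPM), and the quiescent control libraries of Ogdh (293 to 337 CPM) lie above the proliferating ones (211 to 251 CPM).

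The knockdown comparisons asked what loss of Stag2 does within each state. In proliferating cells none of the 48 genes passed in edgeR, with or without the block, or in DESeq2. Of all genes, 0.0242% passed in edgeR (3 genes). An unadjusted p under 0.05 in edgeR was reached by 0 of the 48 without and with the block, beside 1.84% and 5.20% of all genes. The 5 largest log2 fold changes were those of Ldhb (0.85, SE 0.70), Pfkp (0.59, SE 0.37), Idh1, the cytosolic isocitrate dehydrogenase (0.44, SE 0.29), Pfkl (0.34, SE 0.27) and Slc16a1 (-0.34, SE 0.32). The 8 genes of lower glycolysis all had positive values, of 0.03 to 0.25 with a median of 0.07, under every scaling tried.

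In quiescent cells none passed in edgeR without the block, beside 0.435% of all genes past the threshold (0.153% higher, 0.282% lower). An unadjusted p under 0.05 was reached by 6 of the 48 (12.5%) and by 12% of all genes. With the block 1 passed, Pdk1 as higher, beside 3.55% of all (1.59% higher, 1.96% lower), and 12 of the 48 (25.0%) had an unadjusted p under 0.05, beside 20.4% of all. DESeq2 called 1 gene without the block, Pgam1, and 4 with it, Cs, G6pdx, Pdk1 and Pgam1. The share of all genes called by DESeq2 is not given here, so these counts cannot be read against a background. Values were positive for 33 of 48 genes (68.8%), beside 52.5% of all, with a median of 0.13 beside 0.02; in proliferating cells the number was 33 of 48 too, beside 49.5% of all. All 4 phosphofructokinase genes were positive in quiescent cells under every scaling, with a median of 0.39 and none past the threshold. The summed proliferation genes were 35.0 to 126 CPM in these knockdown libraries against 11.5 to 47.8 CPM in quiescent control, and their part in these values was not tested.

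Pdk1, the kinase that switches off pyruvate dehydrogenase, was 13.0, 11.4 and 19.3 CPM in quiescent control and 27.3, 17.8 and 29.0 CPM in quiescent knockdown libraries. It was higher in each experiment, by 1.07, 0.64 and 0.58 on the log2 scale, though the groups overlapped. The fitted value was 0.76 (SE 0.24, edgeR adjusted p 0.21; with the block SE 0.16 and adjusted p 0.0296). Pgam1 was 382, 344 and 347 against 628, 459 and 509 CPM, without overlap, and 0.57 (SE 0.17, edgeR adjusted p 0.188; with the block 0.0885).

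Cs, citrate synthase, was 342, 369 and 407 CPM in quiescent control and 276, 303 and 289 CPM in quiescent knockdown libraries. It was lower in each experiment and the groups did not overlap (-0.36, SE 0.12, edgeR adjusted p 0.248; with the block 0.0669). G6pdx was 159, 90.7 and 124 against 111, 77.4 and 74.4 CPM, lower in each experiment (-0.50, SE 0.24, edgeR adjusted p 0.455; with the block 0.0798). Pfkl was 132, 101 and 101 against 218, 119 and 149 CPM (0.54, SE 0.27, edgeR adjusted p 0.473). Slc16a3 had the largest value, 1.92 (SE 0.71, edgeR adjusted p 0.306), from 9, 4 and 6 counts in control and 29, 10 and 47 in knockdown libraries.

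**Figure D4:**
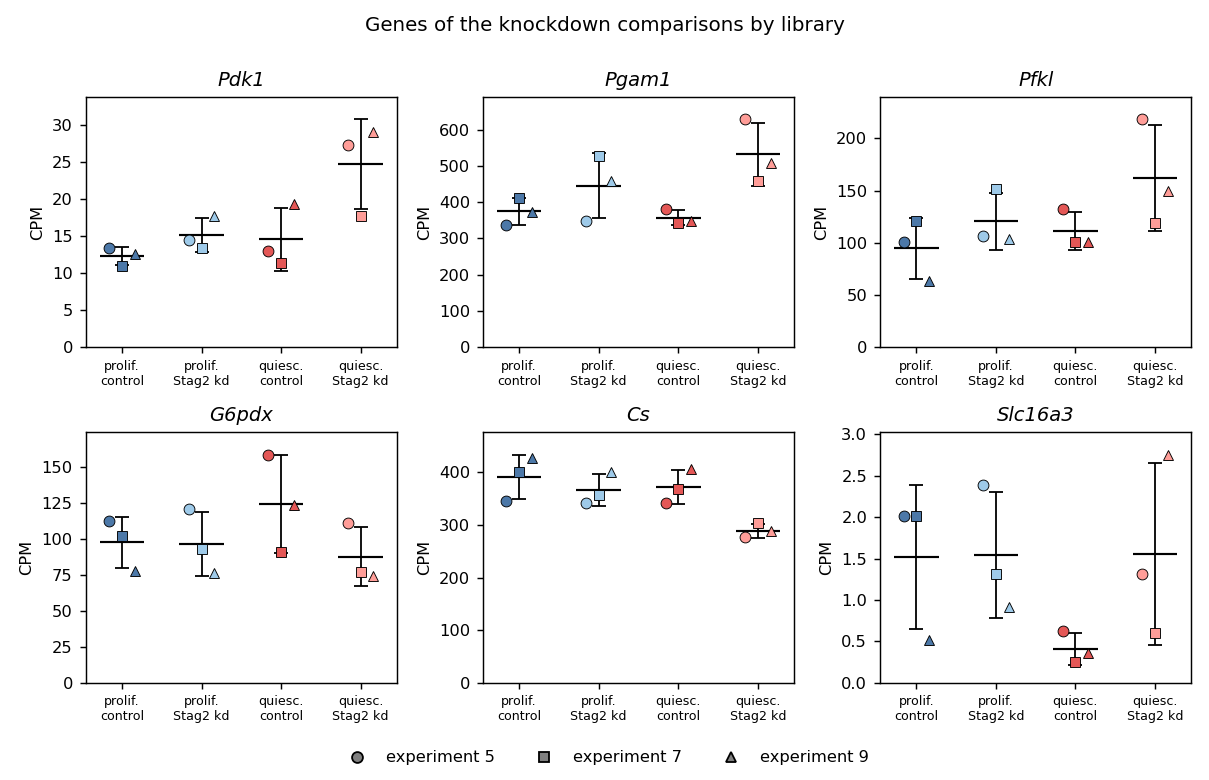
CPM of Pdk1, Pgam1, Pfkl, G6pdx, Cs and Slc16a3 in each library; markers give the experiment, and lines the group mean with its standard deviation (n = 3). Among quiescent libraries the hairpin groups do not overlap for Pgam1 (459 to 628 against 344 to 382 CPM) and Cs (276 to 303 against 342 to 407 CPM), and the other 4 genes overlap.

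Whether the response to knockdown differed between the states, which is the same as whether the response to quiescence differed between the hairpins, was tested by the interaction. None of the 48 genes passed in edgeR, with or without the block, or in DESeq2, and the same was true of all 12406 genes in edgeR (0.00%). The lowest edgeR adjusted p over the 48 was 0.9997 without and 0.999 with the block. An unadjusted edgeR p under 0.05 was reached by 0 and by 1 gene (G6pdx, 0.0396), beside 1.77% and 4.76% of all genes. Thus the genes that passed in control but not in knockdown cells, such as Gapdh, Pgk1, Taldo1 and Ogdh, were not shown to respond differently: their interaction terms were 0.19 (SE 0.21), 0.25 (SE 0.29), -0.30 (SE 0.23) and -0.38 (SE 0.20). The largest terms were those of Slc16a3 (1.90, SE 0.96), Ldhb (-0.60, SE 0.98), G6pdx (-0.49, SE 0.34), Pdk1 (0.46, SE 0.33) and Idh1 (-0.46, SE 0.41). That of Ldhb was -0.11 (SE 0.57) with the block and turned to 1.04 without the quiescent control library of experiment 9.

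Ratios of isozymes within a library do not depend on the scaling of libraries. For 10 pairs the log2 ratio of counts was compared over 3 against 3 libraries by an exact two-sided permutation test, which cannot go below p = 0.1. Ldhb relative to Ldha was -3.54, -4.77 and -3.84 in proliferating control and -3.22, -3.09 and -0.68 in quiescent control libraries. These are ratios of counts, which serve to compare groups, and the order of Ldhb and Ldha within a library depends on the length used. Per kilobase of exon union (1570 bases for Ldhb, 3310 for Ldha) Ldhb was above Ldha in the quiescent libraries of experiment 9. The values were 101 against 76.8 CPM per kb in control and 78 against 64.9 in knockdown cells. The longest coding transcripts are closer in length, at 1304 and 1815 bases. In plain CPM Ldhb was lower, at 159 against 254 in control and 122 against 215 in knockdown cells. Which subunit was higher in these libraries is therefore not settled. The mean shift was 1.72 in control cells (exact p = 0.1, adjusted over the 10 pairs 0.33) and 1.72 in knockdown cells (exact p = 0.1, adjusted 0.4), in the same direction in all 6 experiment pairs. In control cells it was 0.32, 1.67 and 3.16 in experiments 5, 7 and 9, and 0.89 without the quiescent library of experiment 9. The groups also did not overlap for Hk2 relative to Hk1 (-0.49) and Suclg2 relative to Sucla2 (-0.52) with quiescence in control cells. Without the proliferating control library of experiment 9 these shifts were -0.21 and -0.33. After knockdown in quiescent cells the same held for Pdk2 relative to Pdk1 (-0.77; exact p = 0.1, adjusted 0.57). None of the 40 ratio tests passed after adjustment.

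**Figure D5:**
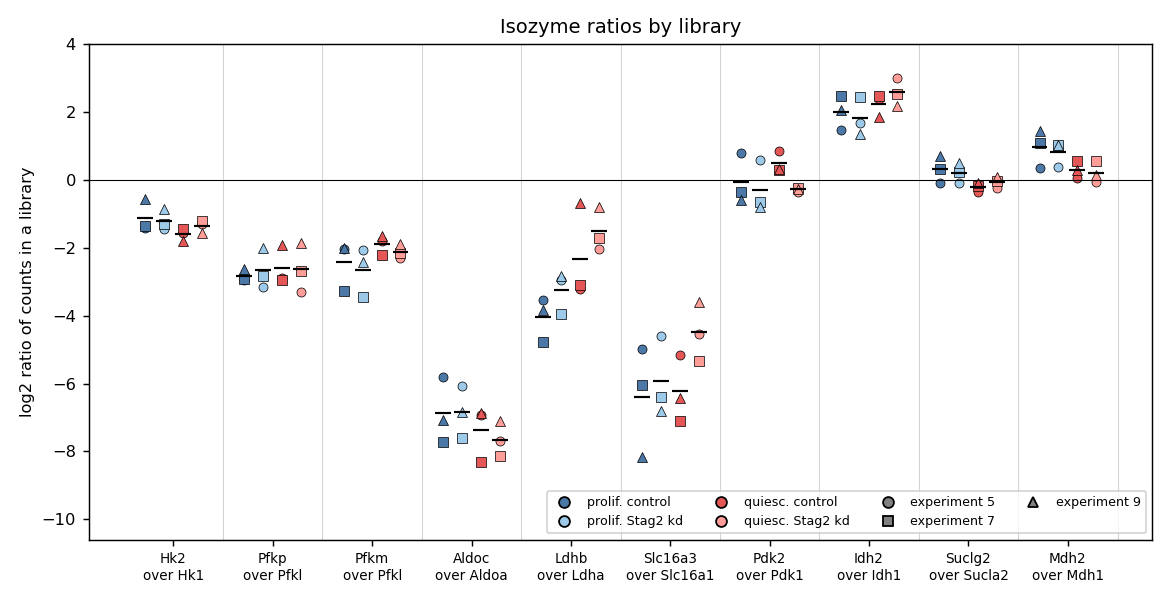
Log2 ratio of counts of isozyme pairs in each library, by group and experiment; black lines are group means (n = 3). The ratio of Ldhb to Ldha lies higher in quiescent than in proliferating cells of the same hairpin, with the highest value, -0.68, in the quiescent control library of experiment 9.

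Other genes of the same pathways were taken from 5 lists of isozymes, regulators, carriers and hypoxia-responsive genes; 83 of 101 were tested. With quiescence in control cells 5 rose and 12 fell (20.5%, beside 20.0% of all genes), and with quiescence in knockdown cells 6 rose and 11 fell (20.5%, beside 18.4%). With the block these counts were 13 and 18 in control (37.3%, beside 35.3% of all genes) and 18 and 15 in knockdown cells (39.8%, beside 33.0%). Pfkfb4, an isozyme of Pfkfb3, fell with quiescence by 1.68 (SE 0.17, edgeR adjusted p 0.000132) in control and 1.13 in knockdown cells, from 14.5 to 17.7 CPM down to 4.89 to 4.96 CPM in control libraries, opposite in sign to Pfkfb3. Pfkfb1 fell by 1.21 and 1.26. Acly, which turns exported citrate into acetyl-CoA, fell by 0.50 and 0.58. Me3, a mitochondrial malic enzyme, rose by 2.02 (SE 0.40, edgeR adjusted p 0.00513) and 2.07, from 1.90 to 4.15 up to 10.8 to 11.1 CPM in control libraries. Pklr, the pyruvate kinase of liver and red cells, rose from 0 to 5 counts a library in proliferating control cells to 14 to 25 in quiescent control cells. In CPM per library it stayed under 2 there, against 941, 730 and 771 CPM for Pkm. The other genes that rose in control cells were Shpk, Me1 and Hif1a, and among those that fell were Adpgk, Dera, Mthfd1, Pdp1, Lipt2 and Slc25a13; in knockdown cells Shpk, Mpc1, Mpc2 and Vhl rose, and Dera, Mthfd1, Pdhx, Pdp1, Lipt2 and Slc25a13 were among those that fell. After knockdown none of the 83 passed in either state without the block, beside 0.0242% of all genes in proliferating and 0.435% in quiescent cells. In that fit 0 in proliferating cells had an unadjusted edgeR p under 0.05, beside 1.84% of all genes. In quiescent cells 16 did (19.3%, beside 12% of all genes). With the block 3 passed as higher in quiescent cells (3.61%, beside 3.55% of all): Mpc1, Vhl (0.56, SE 0.13, edgeR adjusted p 0.0436) and Adm. Mpc1, a subunit of the mitochondrial pyruvate carrier, differed by 0.67 (SE 0.16, edgeR adjusted p 0.0486), with 21, 33.3 and 21.1 CPM in control and 42.7, 36.1 and 38.1 CPM in knockdown libraries.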

How the data were processed

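The deposited table held raw counts, which were whole numbers not normalized; the submitters' processing notes name Bowtie, TopHat, HTSeq, DESeq2 and the mm10 build without versions or roles. Annotation, use of strand and treatment of multiply matching reads are not given in the sources used here. The labels' protocols describe poly(A) RNA, a stranded kit and added ERCC RNA; the table had 0 ERCC rows.

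Counts were fitted in R 4.3.3 with edgeR 4.0.16: filterByExpr (minimum count 10), TMM, 4 group means over 12 libraries, glmQLFit and glmQLFTest. The SE is the log2 fold change over the square root of F. DESeq2 1.42.0 was an alternative. The experiment number pairs libraries: it is the batch of the labels under another name, and deviations from group means correlated within experiments (mean r 0.526 over 18 pairs, lowest 0.225). The other alternatives were 3 scalings, 2 filters, a fit to the libraries compared, and leaving out each library or experiment. Lengths are exon unions of GENCODE M21. Isozyme ratios had 0.5 added to each count, with 1 as an alternative. The fit was tested on simulated data. A few genes of the neighbouring lists are counted but not reported by name here.

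The members and lists were chosen with earlier results of these data known. Named genes are those past the threshold without or with the block and, where fewer than 5 were, the 5 with the largest change; library values are given for the largest changes of each step. Replicate pairs differed far beyond sampling noise (chi-square per degree of freedom 36.6 to 99.7), so all were kept.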

Additional observations from a re-analysis of the deposited data

How the results depend on the processing

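Among the 48 genes, the counts past the threshold were 10 with quiescence in control cells, 4 in knockdown cells, and 0 for each knockdown comparison and the interaction. Of 24 alternative counts each, 14 and 16 stayed within 1.5 times for the first pair, and 68 of 71 stayed at 0 for the others. The replicate block gave 16, 12 and 1 genes for quiescence in control and in knockdown cells and for knockdown in quiescent cells. DESeq2 gave 8 for quiescence in knockdown cells and 1 for knockdown in quiescent cells, and with the replicate block 19, 15 and 4 in the order above. Its shares over all genes are not given here. A fit to only the libraries compared gave 5 for quiescence in control cells. Leaving out 1 library gave 3 to 13 and 2 to 6 genes for quiescence in control and knockdown cells, and leaving out an experiment 0 to 9 and 0 to 6; over all genes the block moved the counts from 2481 to 4374, from 2279 to 4096 and, for knockdown in quiescent cells, from 54 to 440. Over all genes, leaving out 1 library gave 1394 to 3078 and 1186 to 2408 for quiescence in control and knockdown cells. Leaving out an experiment gave 592 to 1953 and 701 to 1629. The cause of these moves was not tested, except that leaving out libraries leaves fewer samples. Of 1025 alternative values of named genes 868 kept direction and side of the threshold, 100 lost it, 55 gained it and 2 reversed: the interaction of Ldhb, which was 1.04 without the quiescent control library of experiment 9 and 0.78 without that experiment; over all fits without 1 library it ran from -1.05 to 1.04. For the isozyme ratios 35 of 320 alternatives changed sign, in 18 of 40 comparisons, and each of the 35 left out 1 library. The 320 also hold, for each ratio, the replicate block, which cannot change a mean difference, and 1 added to each count. The share that changed sign was therefore higher among those that left out a library. No p could go below 0.1. The ranges over the alternatives are given for the 18 comparisons. With knockdown in proliferating cells these ran from -0.26 to 0.19 (Hk2:Hk1), -0.17 to 0.41 (Pfkp:Pfkl), -0.63 to 0.19 (Pfkm:Pfkl), -0.39 to 0.55 (Aldoc:Aldoa), -0.43 to 1.16 (Slc16a3:Slc16a1), -0.67 to 0.19 (Pdk2:Pdk1), -0.48 to 0.067 (Idh2:Idh1), -0.30 to 0.089 (Suclg2:Sucla2) and -0.46 to 0.087 (Mdh2:Mdh1). In quiescent cells they ran from -0.42 to 0.31 (Pfkp:Pfkl) and -0.26 to 0.049 (Mdh2:Mdh1). With quiescence in control cells they ran from -0.084 to 0.43 (Pfkp:Pfkl), -0.93 to 0.019 (Aldoc:Aldoa), -0.72 to 0.86 (Slc16a3:Slc16a1) and -0.024 to 0.47 (Idh2:Idh1), and in knockdown cells from -0.28 to 0.020 (Hk2:Hk1), -0.34 to 0.39 (Pfkp:Pfkl) and -0.25 to 0.44 (Pdk2:Pdk1). Slc16a3 was filtered out at a mean count of at least 50. With 3 libraries a group, and counts of 4 to 47 for Slc16a3, the precision of low genes is limited.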

Other observations

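Hypoxia-responsive genes share regulators with several glycolytic genes. Of 21 tested, 1 rose with quiescence in control cells, Hif1a itself (147, 171 and 177 CPM in proliferating and 222, 191 and 259 CPM in quiescent libraries of experiments 5, 7 and 9; log2 fold change 0.44, SE 0.13, edgeR adjusted p 0.0314), and none fell (4.76%, beside 20.0% of all genes). With the replicate block 5 rose, Hif1a, Bnip3, P4ha1, Adm and Ddit4, and Egln3 fell (28.6%, beside 35.3%). In knockdown cells Vhl, part of the ligase that degrades hypoxia-inducible factors, rose by 0.50 (SE 0.13, edgeR adjusted p 0.0252), the 1 gene of 21 to pass, beside 18.4% of all genes. With the block 7 passed there (33.3%, beside 33.0%): Vhl, Bnip3, P4ha1, P4ha2, Adm and Ddit4 as higher and Epas1 as lower. Adm, the peptide adrenomedullin, was 5.24, 4.47 and 9.30 CPM in quiescent control and 11.7, 9.54 and 18.7 CPM in quiescent knockdown libraries, and passed with the block (1.07, SE 0.20, edgeR adjusted p 0.0229). Car9, a classical hypoxia target, stayed between 0.25 and 1.46 CPM in all 12 libraries.

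As a share of all counts, the 48 genes together took 0.869% ± 0.025 (SD, n = 3) in proliferating control, 0.929% ± 0.053 in proliferating knockdown, 0.838% ± 0.043 in quiescent control and 0.917% ± 0.103 in quiescent knockdown libraries. The 8 genes of lower glycolysis took 0.317% ± 0.017, 0.352% ± 0.022, 0.256% ± 0.020 and 0.307% ± 0.043. In quiescent knockdown cells the library of experiment 5 was highest on both sums, at 1.02% and 0.352%.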
